A study of Mus musculus with 12 samples.

Results

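The cardiac miRNAs of young mice with a mutant circadian clock were set against those of old wild-type mice, with young wild-type hearts as the reference. The hearts were chosen by their labels alone, 3 Clock mutant hearts of 4 months, 3 wild-type (WT) hearts of 21 months and 3 WT hearts of 4 months, which are 9 of the 12 arrays of the series. The mutants carry Clock delta 19 on both alleles, and every mouse was of the C57Bl/6J background. All hearts came from mice killed at ZT 6, that is 6 hours after lights on, and ventricular total RNA was hybridised to a miRNA array. The labels call the replicates biological, and 1 array was taken to stand for 1 mouse. The remaining 3 arrays, from Clock mutants of 21 months, entered the estimate of the spread and are given for context.

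CLOCK pairs with BMAL1 to drive the daily cycle of transcription in most cells, heart muscle cells included, and the delta 19 form binds DNA but activates its targets poorly. The allele is a germline change, so it is not limited to the heart, and effects of the rest of the body cannot be told apart from effects within heart cells. MiRNAs are short RNAs that pair with messenger RNAs and lower their stability or translation. Loss of clock function has been linked to early features of ageing in mice, which raises the question of whether a young mutant heart lies toward the old wild-type heart or away from it. Young Clock and old WT hearts differ in genotype and in age at once, so a difference between them cannot be assigned to either without the young WT hearts.

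The table held 1908 probe sets for mature miRNAs, named by accession number only. The files and tables used here do not pair these numbers with miRNA names, so no name, sequence, role or genomic position is given for a miRNA, and miRNAs known to mark heart muscle, blood cells or vessels could not be looked up to check the tissue. At most 2 higher and 2 lower IDs are named in each comparison. Values are levels on a scale taken as log2, each relative to the probe set's median over the 12 arrays, so levels of different probe sets cannot be compared. In such bulk tissue, fewer cells of a type and less RNA per cell cannot be told apart. The standard deviation over mature probe sets ranged from 0.333 to 0.445 among the 9 arrays. On the axis of largest variance of all arrays, 3 young hearts stand apart at -14.0 to -10.7 from the other 3 (-1.73 to 1.96). They are replicates 2 and 3 of the mutant and replicate 2 of the wild type. The old hearts of both genotypes lie at 2.34 to 8.68. These 3 are thus the young hearts farthest from the old ones on that axis, and leaving them out is not neutral to age. Values without these 3 hearts, which leave 1 young Clock heart, are given for the calls and for the measures over all probe sets where they could be computed.

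The direct comparison of young Clock with old WT hearts gave 6 mature miRNAs that differed, and all 6 were lower in the young mutant. They were 2.05-fold to 4.51-fold lower (limma, Benjamini-Hochberg adjusted p = 0.0299 for each). That is 0.314% of the 1908 probe sets, and 0 were higher. The reference comparisons called fewer: 0 of 1908 between young Clock and young WT (smallest adjusted p = 0.142, with 115 at an unadjusted p under 0.05) and 1 of 1908, or 0.0524%, between old and young WT. At an unadjusted p under 0.05, 69 probe sets (3.62%) were higher and 123 (6.45%) lower in young Clock than in old WT hearts, together 10.1% of those tested. The corresponding shares were 6.03% between young Clock and young WT hearts and 5.61% between old and young WT hearts. By direction, 56 were higher and 59 lower in young Clock than in young WT. In old WT 78 were higher and 29 lower than in young WT, so an uneven split was also present between the WT ages. That split became 71 and 66 with quantile normalization and 75 and 36 when array medians were set to 0. The split of 69 and 123 became 94 and 93 with quantile normalization and 72 and 112 when array medians were set to 0. Without the 3 young hearts that stand apart it was 73 higher and 53 lower, so the excess of lower probe sets did not hold without them. Differences beyond 1 on the log2 scale numbered 18 higher and 65 lower of 1908 in young Clock against old WT. They numbered 10 higher and 18 lower in young Clock against young WT, and 33 higher and 9 lower in old against young WT. Such differences were not counted without the 3 hearts or after quantile normalization.

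These 6 probe sets fell into different arrangements once the young WT hearts were added. MIMAT0028056 had the arrangement of an age difference. It was at -0.32, -0.42 and -0.38 in the Clock hearts of 4 months, at -0.68, -0.66 and -0.48 in the WT hearts of 4 months, and at 0.86, 0.95 and 0.74 in the WT hearts of 21 months. Both young groups lay well below the old one, and the young Clock hearts lay just above the young WT hearts with no overlap. The young Clock minus old WT difference was -1.22 (SE 0.20), or 2.33-fold lower. Against young WT it differed by 0.23 (SE 0.20, limma adjusted p = 0.929), with a 95% interval of -0.22 to 0.68. Old WT exceeded young WT by 1.45 (SE 0.20, limma adjusted p = 0.039), the 1 call between ages in wild type. Old Clock hearts were at 0.85, 0.32 and 1.27, above every young heart of either genotype.

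MIMAT0000679 likewise hardly separated the young groups. The Clock hearts of 4 months were at 0.0058, -0.24 and -0.0058 and the WT hearts of the same age at -0.019, -0.11 and -0.0998. The WT hearts of 21 months were at 1.07, 0.81 and 0.99. All 6 young hearts were thus below all 3 old WT hearts, and the young groups overlapped. Young Clock and young WT means differed by -0.0033 (SE 0.17), with a 95% interval of -0.38 to 0.37, while young Clock minus old WT was -1.03 (SE 0.17). Old WT exceeded young WT by 1.03 (SE 0.17), which did not pass (limma, adjusted p = 0.0803). The old Clock hearts, at 0.11, -0.085 and 0.56, were also below each old WT heart.

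MIMAT0000657 had the opposite arrangement, with the young mutant apart from both wild-type ages. It was at -0.88, -0.998 and -0.90 in the Clock hearts of 4 months. The WT hearts were at 0.23, 0.24 and 0.043 at 4 months and at 0.44, -0.043 and 0.44 at 21 months. The young Clock hearts lay below all 6 WT hearts, and the WT ages overlapped. The young Clock mean differed from old WT by -1.21 (SE 0.18) and from young WT by -1.10 (SE 0.18), the second with an adjusted p of 0.142 in limma. Old and young WT differed by 0.11 (SE 0.18), with a 95% interval of -0.28 to 0.50. Against the mean of both WT ages the young mutant differed by -1.15 (SE 0.15), or was 2.22-fold lower (limma, adjusted p = 0.0253), the only one of 1908 probe sets called in that comparison (0.0524%). Old Clock hearts were at -0.13, 0.12 and -0.44, above every young mutant and overlapping the WT hearts.

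The other 3 had young WT means between young Clock and old WT. MIMAT0004828 had the largest difference of the 6. It was at -0.31, -0.41 and -1.31 in young Clock, at 0.65, 0.079 and -0.68 in young WT, and at 1.16, 1.33 and 1.99 in old WT. Young Clock and young WT overlapped, and both lay below every old WT heart. The young Clock mean differed from old WT by -2.17 (SE 0.36, 4.51-fold lower), made up of a difference of -0.69 (SE 0.36) from young WT and one of 1.48 (SE 0.36) between the WT ages. Neither of these parts passed alone (limma, adjusted p = 0.809 and 0.363).

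MIMAT0028400 was at -0.36, -0.35 and -0.998 in young Clock, at -0.51, -0.093 and 0.24 in young WT, and at 1.33, 1.504 and 0.78 in old WT. The young groups again overlapped and the old WT hearts were all above them. Young Clock differed from old WT by -1.77 (SE 0.28, 3.42-fold lower) and from young WT by -0.45 (SE 0.28). The WT ages differed by 1.32 (SE 0.28), and neither part passed alone (limma, adjusted p = 0.884 and 0.297). MIMAT0007876 was at -0.61, -1.12 and -0.89 in young Clock, at 0.085, -0.42 and 0.57 in young WT, and at 1.02, 0.94 and 0.42 in old WT. Here young Clock hearts lay below every WT heart, while the WT ages overlapped. Its difference from old WT was -1.67 (SE 0.27, 3.17-fold), from young WT -0.95 (SE 0.27), and between WT ages 0.71 (SE 0.27). The last 2 differences did not pass (limma, adjusted p = 0.647 and 0.711). Measured from the young Clock mean to the old WT mean, young WT lay 31.8% of the way for MIMAT0004828, 25.4% for MIMAT0028400 and 57.2% for MIMAT0007876. For MIMAT0028056, MIMAT0000679 and MIMAT0000657 these shares were -18.9%, 0.32% and 90.8%. In all 3 miRNAs of this group the old Clock means, at -0.013, 0.0081 and -0.078, were close to the young WT means of 0.013, -0.12 and 0.078 and not to the old WT means. The probe sets were picked for a large gap between young Clock and old WT, which by itself tends to place other groups between them.

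**Figure D1:**
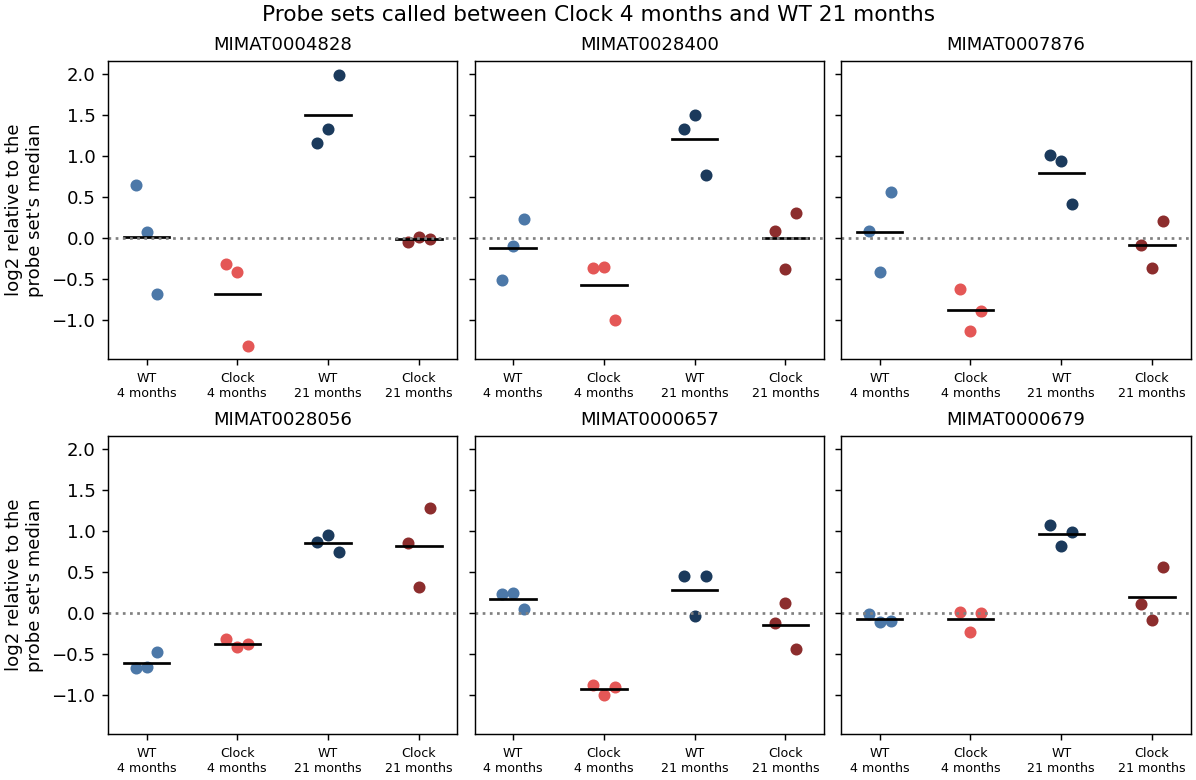
Level of each of the 6 called probe sets (vertical axis, log2, centred on the median of 12 arrays) in each heart, by group, with points for hearts and bars for the means of 3. The young Clock hearts are below the old WT hearts in every panel, while the young WT hearts lie beside young Clock for MIMAT0028056 and MIMAT0000679 and beside old WT for MIMAT0000657.

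The 6 calls were close to the threshold and rested on all 6 arrays compared. The count was 0 without any 1 of the 3 Clock 4-month hearts, without WT 21-month replicate 1 or 3, or without Clock 21-month replicate 1, and 1 without WT 21-month replicate 2. Removing WT 4-month replicate 1 gave 3, removing replicate 2 of that group gave 9, and 1 was left after quantile normalization (MIMAT0028400). The differences themselves moved less: over the 12 removals that of MIMAT0004828 lay between -2.35 and -1.86, that of MIMAT0000657 between -1.37 and -1.13, and that of MIMAT0000679 between -1.11 and -0.96. Without the 3 young hearts that stand apart, the 6 differences were -1.81 to -0.95 and 0 passed. The call of MIMAT0000657 against both WT ages was lost after quantile normalization, and when any 1 young Clock heart, replicate 1 or 3 of either WT age, or replicate 1 of the old Clock hearts was removed. Over all 12 removals of 1 array its difference lay within -1.23 and -1.11. Without the 3 young hearts it was -1.09 (limma adjusted p = 0.527), and the 1 call then made was of another probe set, higher in young Clock. The call of MIMAT0028056 between WT ages passed, of the 12 removals of 1 array, only in those of Clock 21-month replicates 2 and 3, with differences of 1.40 to 1.52 throughout.

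No probe set was called higher in young Clock than in old WT. The 2 with the smallest p were MIMAT0000597 and MIMAT0025103. MIMAT0000597 was at 0.43, 0.83 and 0.55 in young Clock, at 0.13, 0.699 and 0.032 in young WT, and at -1.19, -0.23 and -0.54 in old WT, a difference of 1.26 (SE 0.29, limma adjusted p = 0.15). Every young heart of either genotype was above every old WT heart. MIMAT0025103 was at 0.28, 1.23 and 0.62 in young Clock, at 0.079, 0.030 and 0.090 in young WT, and at -0.20, -0.030 and -0.49 in old WT, a difference of 0.95 (SE 0.23, limma adjusted p = 0.179). Here the order was young Clock, young WT, old WT with no overlap between neighbours. Groups did not overlap at 308 probe sets (16.1%) between young Clock and old WT, at 212 (11.1%) between young Clock and young WT, and at 227 (11.9%) between old and young WT. Between young Clock and young WT 0 probe sets were called, so lack of overlap at a single probe set carries little weight.

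The 2 reference comparisons share the young WT hearts, so their values are set side by side and not correlated. Between young Clock and young WT, the 2 higher and the 2 lower probe sets with the smallest p in each direction included MIMAT0000657, given above. The others were the following. MIMAT0012771 was at 0.64 ± 0.24 in young Clock, -0.31 ± 0.20 in young WT and 0.011 ± 0.28 in old WT (SD, n = 3). Its genotype difference was 0.95 (SE 0.20) and its age difference 0.32 (SE 0.20). MIMAT0004889 was at 0.27 ± 0.16, -0.37 ± 0.071 and -0.082 ± 0.14 in the same order, with differences of 0.65 (SE 0.15) and 0.29 (SE 0.15). For both, the old WT mean lay between the young groups. MIMAT0027951 was at -0.35 ± 0.13 in young Clock, 0.46 ± 0.37 in young WT and -0.18 ± 0.17 in old WT, so that the young mutant was nearer to the old WT hearts than to the young ones. Its differences from young WT were -0.81 (SE 0.18) for young Clock and -0.64 (SE 0.18) for old WT, and neither passed (limma, adjusted p = 0.604 and 0.419). A pick on the young groups favours probe sets with an extreme young WT mean. This by itself tends to place old WT on the side of young Clock.

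At the 2 probe sets with the smallest p among those lower with age in wild type, the young Clock mean was close to the young WT mean. MIMAT0004670 was at -0.020 ± 0.19 in young Clock, 0.11 ± 0.082 in young WT and -0.90 ± 0.58 in old WT (SD, n = 3). MIMAT0027774 was at 0.55 ± 0.29, 0.49 ± 0.36 and -0.60 ± 0.47 in the same order. Young Clock differed from young WT by -0.13 (SE 0.24) and 0.054 (SE 0.28), against age differences of -1.01 (SE 0.24) and -1.09 (SE 0.28) in wild type that did not pass (limma, adjusted p = 0.363 for both).

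Over all 1908 mature probe sets, the young mutant was then placed on the line from young to old wild type. For each probe set the difference of young Clock from young WT was multiplied by the difference of old WT from young WT, and the products were averaged. A mean above 0 lies toward old WT and one below 0 away from it. Both differences contain the same young WT mean, whose random error pushes the product up, so the sampling variance of that mean, from the spread between the 3 hearts, was subtracted. The result was -0.0196 in squared log2 units, or -51.2% of the squared distance from young to old WT, which lies away from the old hearts. Its size was within what the young hearts gave when divided into 3 and 3 without regard to genotype: 11 of the 20 divisions gave a value at least as large in either direction (exact permutation test, two-sided p = 0.55, adjusted p = 0.55 over 3 tests). The other 19 divisions ranged from -0.0323 to 0.0811. The smallest p possible in this permutation test was 0.05, and it was 0.1 in the others. No adjusted p under 0.05 could therefore arise in the 3 tests. With 3 hearts a group the test could establish neither a shift toward nor a shift away from the old wild-type heart.

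Without the subtraction the same measure was 0.0268, or 21.5% of the uncorrected squared distance, and pointed toward the old hearts. The uncorrected value was above 0 in all 20 divisions of the young hearts, with a mean of 0.0485, against 9 of 20 after the correction. Its exact permutation p was 0.85. The corrected value was 0.00112 when WT 4-month replicate 2 was removed and -0.0414 when replicate 1 of that group was. It was 0.0113 without the 3 young hearts that stand apart.

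Single hearts were placed on the same line, with each WT heart left out of the end it belongs to, so that young WT averages 0% and old WT 100% by construction. The Clock hearts of 4 months were at 3.44%, -55.6% and -101% (mean -51.2%, SD 52.5). The WT hearts of 4 months were at -64.3%, -2.19% and 66.5% (SD 65.4), a range that holds 2 of the 3 Clock hearts. The WT hearts of 21 months were at 114%, 107% and 78.7%. The old Clock hearts, which had no part in drawing the line, were at 68.0%, 84.0% and 135%. Young Clock hearts thus spread over the young WT hearts and beyond them on the side away from old WT, and none of the 3 reached an old heart of either genotype.

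**Figure D2:**
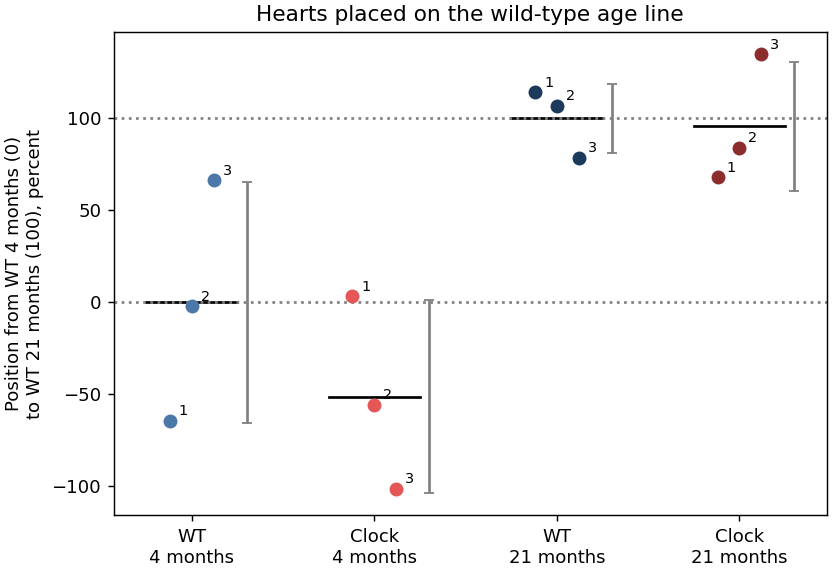
Position of each heart (vertical axis, percent) on the line from the young WT mean (0) to the old WT mean (100) over 1908 mature probe sets, by group, with replicate numbers beside the points, black bars for means and grey bars for ± 1 SD of 3 hearts. Clock hearts of 4 months lie between -101% and 3.44%, and all 6 hearts of 21 months lie between 68.0% and 135%.

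By distance, 1 young mutant heart was as near to the old WT hearts as young WT hearts were, and the other 2 were farther. The root mean square difference between single hearts was 0.490 to 0.660 (median 0.603) over the 9 pairs of a young Clock and an old WT heart. It was 0.491 to 0.603 (median 0.554) over the 9 pairs of a young and an old WT heart. Clock replicate 1 averaged 0.529, close to WT 4-month replicates 1 (0.528) and 3 (0.524). Clock replicates 2 and 3 averaged 0.607 and 0.639, above the 0.581 of WT 4-month replicate 2. Distances between single hearts include the random error of each array, and these 2 Clock arrays also had the larger standard deviations over probe sets (0.429 and 0.445, against 0.349 for replicate 1). The part of that error in the distances of single hearts was not tested.

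With the within-group variance subtracted, the group means of young Clock and old WT were 0.294 apart on the log2 scale (root mean square), those of young and old WT 0.196, and those of young Clock and young WT 0.095. In squared units young Clock was 2.26 times as far from old WT as young WT was, a difference of 0.0482. Without the subtraction the ratio was 1.41 and the difference 0.0506. The other divisions of the young hearts gave -0.0977 to 0.0977 (exact permutation test, two-sided p = 0.5, adjusted p = 0.55, where 0.1 is the smallest p possible). The difference was 0.0105 without Clock 4-month replicate 3, 0.0313 without WT 4-month replicate 3 and 0.102 without Clock 4-month replicate 1.

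**Figure D3:**
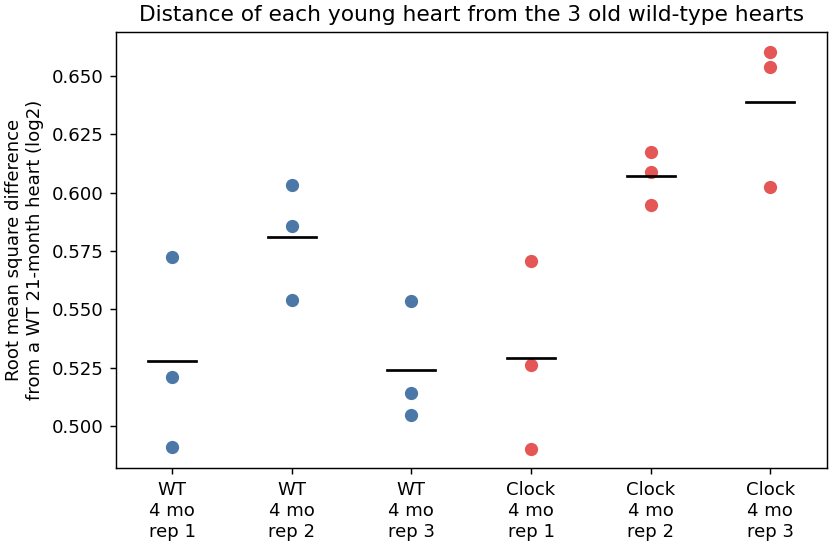
Root mean square difference (vertical axis, log2) of each young heart from each of the 3 WT hearts of 21 months over 1908 mature probe sets, with 1 point per old heart and bars for means; the axis does not start at 0. Clock replicate 1 averages 0.529 and lies with the young WT hearts, and Clock replicates 2 and 3, at 0.607 and 0.639, lie above all 3 young WT means.

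Another measure asked which group mean lay in the middle. An early-ageing arrangement puts young Clock between young and old WT. Young Clock was in the middle at 31.0% of mature probe sets, young WT at 38.6% and old WT at 30.5%. Young WT was therefore the middle group more often than young Clock, by 7.60 percentage points. The genotype labels gave a difference of -7.60 points against -11.5 to 11.5 in the other divisions (exact permutation test, two-sided p = 0.3, adjusted p = 0.55, where 0.1 is the smallest p possible). The difference was -16.7, -8.81 and -9.91 without Clock 4-month replicates 1, 2 and 3. It was -5.45, -4.30 and 0.786 without WT 4-month replicates 1, 2 and 3. The measure is not corrected for random error, and a mean of fewer hearts is noisier and tends to be in the middle less often. A removal therefore shifts the value by unequal group size as well as by the heart removed. Without the 3 young hearts that stand apart the difference was -9.49, with the same limit.

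**Figure D4:**
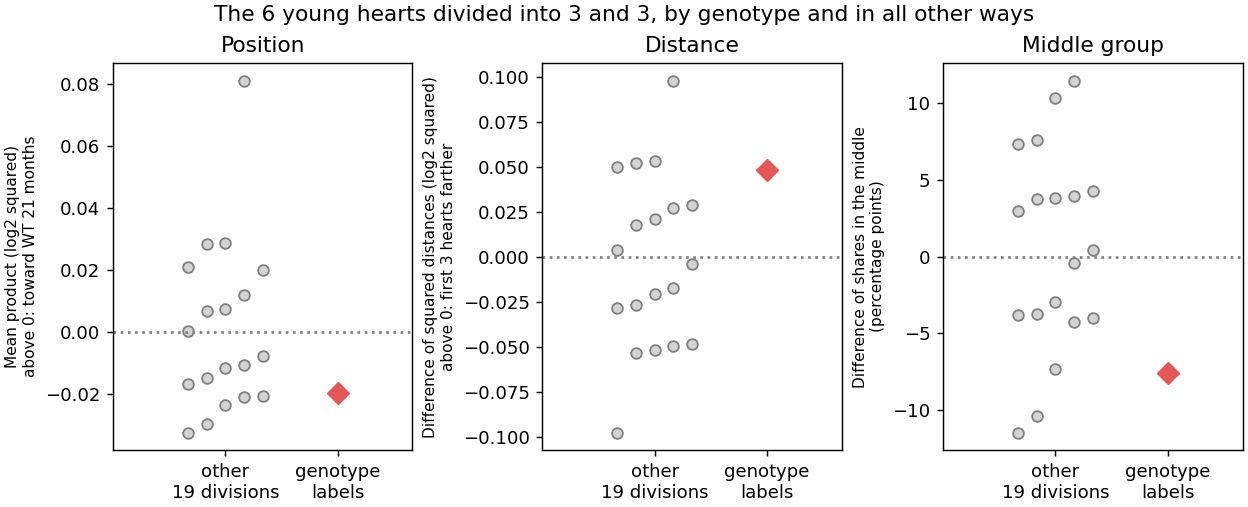
The 3 measures (vertical axes, units as labelled) for the genotype labels of the young hearts (red diamond) and for the other 19 divisions of these 6 hearts into 3 and 3 (grey circles, spread sideways only for legibility). The values by genotype, -0.0196, 0.0482 and -7.60, lie inside the range of the other divisions in every panel.

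At the 192 probe sets with an unadjusted p under 0.05 between young Clock and old WT, the young WT mean was nearer to young Clock at 105 and nearer to old WT at 87, so that 54.7% were nearer to young Clock against 51.1% of all 1908. The old Clock mean was nearer to young Clock at 79 and nearer to old WT at 113, or 41.1% nearer to young Clock against 46.3% of all. Both shares were near those of all mature probe sets. Turned toward the sign of each difference, the median gap between young Clock and old WT was 0.78 on the log2 scale, that from young Clock to young WT 0.33 and that from young WT to old WT 0.38. The probe sets were picked and signed by the first gap. The pick by itself enlarges that gap and tends to place both of its parts above 0. The opposite pair of groups, young WT and old Clock, shares no array with young Clock and old WT. Its differences had the same sign at 112 of the 192 probe sets (58.3%, against 53.6% of all 1908) and a median of 0.054. This median is not enlarged by the pick in that way, so its size cannot be set against the 0.78. Across all 1908 probe sets, which are not independent replicates, the 2 sets of differences (young minus old in both, with the genotypes exchanged) had r = 0.225 and Spearman's rho = 0.13, and r = 0.266 without Clock 21-month replicate 2.

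The precision limits what these comparisons can show for single miRNAs. The median half-width of the 95% interval was 0.466 on the log2 scale, and the interval excluded a 2-fold difference between young Clock and old WT for 1414 probe sets (74.1%). Between young Clock and young WT it did so for 1480 (77.6%). No filter on signal was possible on centred values, so unexpressed miRNAs may be among those counted.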

How the data were processed

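The authors deposited 1 table of 3163 probe sets (1908 mature, 1255 precursor) by 12 arrays. Its values are taken as log2, per the deposited values, with each probe set's median over the arrays at 0 (tolerance 1e-06). The labels' protocols give miRNeasy extraction and Affymetrix biotin labelling. For software, background correction, normalization and log base, nothing is given in the sources used here. Group means were compared in a single limma 3.58.1 model (R 4.3.3) of the mature probe sets on all 12 arrays (8 residual and 2.82 prior degrees of freedom), with Benjamini-Hochberg adjustment within each of 4 comparisons and a threshold of 0.05. Position, distance and middle-group share were computed in Python 3.11.15, with exact permutation over the 20 divisions of the 6 young hearts. The limma calls and the mean of the position measure were tested on simulated data with independent random error. The difference of distances, the middle-group share and the permutation p were not tested in this way. Depth does not apply to arrays, and 3 arrays a group limit the precision.

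Named miRNAs follow a rule, called ones by size and then the smallest p in each of the 4 comparisons, shortened to 2 higher and 2 lower each because 0 accession numbers matched a name. Each of the 6 called is among these. The miRNA lists planned could not be used, for the same reason. Members, rule and tests were chosen with earlier results of these data known. Alternatives were quantile normalization, array centring, array weights, the replicate block, other probe sets, fewer arrays, no variance subtraction and a threshold of 0.10. Same-numbered arrays of the 3 groups did not deviate together (9 correlations from -0.08 to 0.11), so the numbers were not taken as pairs.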

Additional observations from a re-analysis of the deposited data

How the results depend on the processing

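For young Clock against old WT, the 6 calls became 12 at an adjusted p under 0.10, 12 over the more variable probe sets (SD at or above the median), 10 with array weights, 3 in a fit to the 9 arrays alone, 1 after quantile normalization, and 0 with the replicate block (adjusted p = 0.0604 for each of the 6) or without the 3 young hearts that stand apart (0 to 9 with single arrays removed). For old against young WT, the 1 call became 2 at an adjusted p under 0.10, with array weights or with the 9 arrays alone, and 0 after quantile normalization, over the more variable probe sets, with the replicate block or without those 3 hearts (0 to 2 with single arrays removed). For young Clock against both WT ages, the 1 call became 0 after quantile normalization, over the more variable probe sets or with the replicate block (0 to 6 with single arrays removed, the 6 without WT 4-month replicate 2). Without those 3 hearts it was also 1, but of another probe set, which was higher. For young Clock against young WT, the 0 calls became 1 without WT 4-month replicate 1 and remained 0 in the other fits run. In the position measure the sign turned without the variance subtraction (0.0268), by its construction, and without those 3 hearts (0.0113). Leaving out each array gave -0.0414 to 0.00112 for the position, 0.0105 to 0.102 for the difference of distances and -16.7 to 0.786 for the middle-group share. The range of the middle-group share includes the shift from unequal group sizes. With all 6 old hearts as the reference the 3 measures were -0.0112, 0.0314 and -4.56, in the same order. The smallest permutation p over all these settings was 0.1. It was that of the difference of distances (0.102) and of the middle-group share (-16.7) without Clock 4-month replicate 1. In that setting 0.1 is also the smallest p possible, so no other division gave a value of that size. The difference of distances was not computed without the 3 hearts, since 1 Clock heart gives no spread. The removal of the 3 hearts and the reference of 6 old hearts were chosen after seeing the data. The 3 hearts removed are the young ones farthest from the old hearts on the axis of largest variance. Their removal is therefore not neutral to age. Other causes of these changes were not tested.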
